A study of Homo sapiens with 8 samples.

Results

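JQ1 and RVX-208, both inhibitors of the BET bromodomain proteins, were set against each other directly in HepG2, an established line grown from a human liver tumour that keeps hepatocyte features. The 5 arrays of the comparison, out of 8 arrays in all, were chosen by their sample titles and not by any measured value. JQ1 arrays (n = 2) came from cells kept for 4 h in JQ1 at 500 nM, and RVX-208 arrays (n = 3) from cells kept for 4 h in RVX-208 at 5000 nM. DMSO arrays (n = 3) came from cells kept for 4 h in the solvent alone, at 0.1%, which all groups received. They shared in the estimate of the spread and gave the direction of each compound. A further JQ1 sample is not analysed here. Each compound was tested at 1 dose, and the doses differ, so what differs between the groups below is a compound at its dose, and compound and dose cannot be told apart. The labels number the samples but do not say whether they came from separate cultures, so each p-value reflects only how far these samples scattered, which may be technical.

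RNA was measured on Affymetrix Human Gene 1.0 ST arrays, and a level is the authors' log2 signal, on which 1 unit is a doubling. Of the 17845 genes with a value, 11 of the 12 hepatocyte markers listed were measured, at means over all arrays between 10.57 and 13.48, and 0 of them lay below 6. The median of 10 blood cell markers was 5.86, with LYZ the highest at 13.24, and that of 11 fibroblast and endothelial markers was 6.28, with PECAM1 the highest at 8.17. The mean level of the blood cell markers was 6.77 to 6.91 in JQ1 arrays, 6.75 to 6.86 in RVX-208 arrays and 6.87 to 6.97 in DMSO arrays. A member of these 3 marker lists was called different between JQ1 and RVX-208 in 0 cases. The precision of every value is limited by how few arrays there are.

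BET proteins read acetylated lysines on histones with paired bromodomains and help to recruit the elongation kinase P-TEFb to RNA polymerase II. P-TEFb is held inactive by HEXIM1 in a complex built on the 7SK RNA, and the release of P-TEFb together with higher HEXIM1 expression is a known response to BET inhibition. JQ1, a thienotriazolodiazepine, occupies the first and the second bromodomain alike. RVX-208 is a quinazolinone that prefers the second bromodomain, and it is known for raising apolipoprotein A-I, encoded by APOA1, in liver cells. In hepatocytes, CYP1A1 is a haem enzyme that oxidises aromatic compounds and is the classic target of the aryl hydrocarbon receptor AHR. ARRDC4 and TXNIP are alpha-arrestins that restrain glucose uptake and are induced by the glucose-sensing factors MLX and MLXIP.

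The RefSeq promoters of 3 genes (assembly GRCh38.p14, 250 bases before to 50 after the gene start, given 5′ to 3′ on the gene's own strand) are printed because these genes anchor the comparison. ARRDC4 had the largest rise and CYP1A1 the largest fall of JQ1 relative to RVX-208, and HEXIM1 is the usual reporter of BET inhibition. Capitals mark matches, on either strand, to 5 short motifs. They are GCGTG, the core that AHR and ARNT bind, CACGTG, the E-box, which can overlap with it, the CCAAT box, the TATAAA box, and the GC box GGGCGG. ARRDC4 lies on the plus strand at chr15:97960453-97960752, CYP1A1 on the minus strand at chr15:74725479-74725778 and HEXIM1 on the plus strand at chr17:45148225-45148524.
ARRDC4: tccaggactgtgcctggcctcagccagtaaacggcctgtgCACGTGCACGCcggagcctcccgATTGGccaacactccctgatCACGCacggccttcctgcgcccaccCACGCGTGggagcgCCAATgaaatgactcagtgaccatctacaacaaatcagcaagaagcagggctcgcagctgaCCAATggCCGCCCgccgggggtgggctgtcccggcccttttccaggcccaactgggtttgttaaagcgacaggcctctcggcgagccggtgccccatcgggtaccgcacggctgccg
CYP1A1: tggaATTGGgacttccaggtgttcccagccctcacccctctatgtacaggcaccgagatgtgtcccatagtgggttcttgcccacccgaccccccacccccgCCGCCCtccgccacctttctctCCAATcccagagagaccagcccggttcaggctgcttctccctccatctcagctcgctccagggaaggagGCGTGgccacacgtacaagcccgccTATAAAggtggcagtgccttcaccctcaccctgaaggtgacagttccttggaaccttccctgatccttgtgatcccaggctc
HEXIM1: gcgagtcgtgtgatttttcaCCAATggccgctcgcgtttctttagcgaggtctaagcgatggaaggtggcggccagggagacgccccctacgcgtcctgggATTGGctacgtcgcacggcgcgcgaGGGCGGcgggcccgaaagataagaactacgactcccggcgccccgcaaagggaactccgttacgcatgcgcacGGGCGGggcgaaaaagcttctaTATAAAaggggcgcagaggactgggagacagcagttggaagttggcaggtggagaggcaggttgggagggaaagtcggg
The ARRDC4 window held 4 matches to GCGTG, 1 to CACGTG and 3 to CCAAT. The CYP1A1 window held 1 match to GCGTG, 2 to CCAAT and 1 to TATAAA. The HEXIM1 window held 0 matches to GCGTG, 2 to CCAAT and 1 to TATAAA. A match describes these letters only and is not a binding site.

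The 3 genes stood in 2 different orders. ARRDC4 measured 9.70 and 9.94 in JQ1 arrays, against 8.43, 8.34 and 8.42 in RVX-208 arrays, and 7.95, 8.04 and 7.87 in DMSO arrays. HEXIM1 measured 11.08 and 11.19 with JQ1, against 10.16, 10.09 and 10.14 with RVX-208, and 9.68, 9.61 and 9.65 in DMSO. For both genes every JQ1 array lay above every RVX-208 array, and every RVX-208 array lay above every DMSO array. The difference JQ1 minus RVX-208 was 1.43 ± 0.08 log2 units for ARRDC4 (SE, 2.7-fold, limma adjusted p = 1.21e-04) and 1.01 ± 0.06 for HEXIM1 (2.01-fold, adjusted p = 1.21e-04). CYP1A1 measured 6.97 and 7.23 with JQ1, against 9.28, 9.45 and 9.53 with RVX-208, with the DMSO arrays in between at 8.36, 8.23 and 8.37. The CYP1A1 difference was −2.32 ± 0.10 log2 units, 4.99-fold, with an adjusted p of 4.18e-05. For each of the 3 genes the call held in all of the 8 fits that left out 1 array.

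Across the genome, JQ1 and RVX-208 cells differed at 1952 of 17845 genes, 10.9% of those tested. A gene is called here when its Benjamini-Hochberg adjusted p over all 17845 genes was under 0.05. Of these, 743 were higher with JQ1 (4.16% of genes tested) and 1209 lower (6.78%). Most differences were small. The median size of a called difference was 0.353 log2 units, and 250 genes (1.4%) were both called and at least 1.5-fold apart, 94 higher and 156 lower. At least 2-fold, 12 were higher and 15 lower, and at least 3-fold, 0 were higher and 3 lower, namely CYP1A1, BDP1 and ART4. Before adjustment 4416 genes had a p under 0.05. The JQ1 arrays all lay above or all below the RVX-208 arrays for 7638 genes, which is 42.8% of genes tested. All 1952 called genes were separated in this way.

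The number of calls changed when single arrays were left out, most for those of JQ1 and RVX-208. Such a fit has fewer arrays, and without either JQ1 array that group holds 1. A lost call therefore need not mean a smaller difference or an unusual array. Without JQ1 replicate 1, 841 genes were called (308 higher, 533 lower), and without JQ1 replicate 2, 949 (323 higher, 626 lower). The totals were 1268 without RVX-208 replicate 1, 1166 without replicate 2 and 1169 without replicate 3. Without DMSO replicates 1, 2 and 3 they were 1847, 1672 and 1981. A set of 547 genes, 3.07% of those tested, was called with all arrays and in each of the 8 fits without 1 array, 180 of them higher (1.01%) and 367 lower (2.06%). Below, a call that "held" is one of these 547, and 217 of the 250 called genes with at least a 1.5-fold difference were among them. The split between higher and lower calls depended on the zero point. With the arrays centred on 11 housekeeping genes, 427 genes were called higher and 1849 lower, and the median over all genes, 0.003 with the deposited values, became −0.061. These 11 were not a fixed reference, with a median difference of 0.043. B2M, 1 of them, was called higher with JQ1 (0.26 ± 0.06, limma adjusted p = 0.0232), a call that did not hold.

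The DMSO arrays showed on which side the called genes lay. The DMSO mean was nearer to the RVX-208 mean than to the JQ1 mean for 1811 of the 1952 called genes (92.8%), against 10804 of all 17845 genes (60.5%), where the JQ1 mean rests on fewer arrays. The share was 89.4% for the 743 genes higher with JQ1, 94.9% for the 1209 lower, and 97.2% for the 250 with at least a 1.5-fold difference. Against the same DMSO arrays, JQ1 called 4066 genes (22.8%) and RVX-208 called 1120 (6.28%). These comparisons share the DMSO arrays, so the changes of both compounds are given side by side below for each gene and their likeness is not tested.

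Bright and dim genes were called unequally. Genes were split by their mean signal over all arrays into deciles. In the dimmest decile, with mean signals of 2.41 to 4.49, JQ1 was higher for 16 genes and lower for 5, or 1.18% of the decile. In the decile from 8.03 to 8.71, JQ1 was higher for 123 and lower for 247, or 20.7%. Higher calls outnumbered lower ones in the 4 dimmest deciles, up to a signal of 6.65, and lower calls outnumbered higher ones in the other 6. By kind of gene, 713 protein-coding genes were higher and 1191 lower of 16557. Among 171 small nucleolar RNA genes 8 were higher and 0 lower, and among 488 long noncoding RNA genes 12 were higher and 10 lower. The called shares of these 2 kinds were 4.68% and 4.51%, below the 10.9% of all genes, of which 4.16% were called higher.

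**Figure D1:**
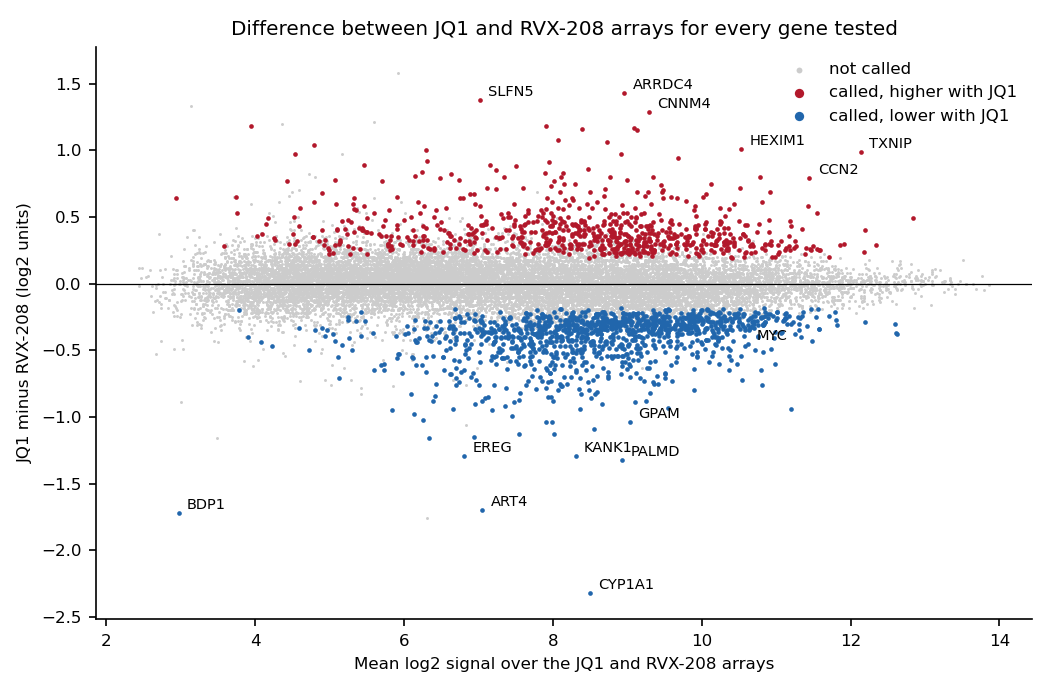
Each point is 1 of 17845 genes, with the mean log2 signal over the JQ1 and RVX-208 arrays across and the difference JQ1 minus RVX-208 in log2 units up. Called genes are red where higher (743) and blue where lower (1209) with JQ1, and CYP1A1 lies lowest at −2.32.

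The 15 largest rises of JQ1 relative to RVX-208 lay between 0.97 and 1.43 log2 units. SLFN5, an interferon-inducible Schlafen protein, measured 7.71 and 7.99 with JQ1, against 6.33, 6.61 and 6.48 with RVX-208, and 5.65, 5.85 and 5.87 in DMSO, a difference of 1.38 ± 0.11 (2.61-fold, adjusted p = 3.90e-04). CNNM4, a magnesium transporter, measured 10.08 and 10.05 with JQ1, against 8.76, 8.78 and 8.77 with RVX-208, and 8.37, 8.41 and 8.43 in DMSO, a difference of 1.29 ± 0.05 (adjusted p = 3.55e-05). In both genes the 3 groups did not overlap and RVX-208 lay between JQ1 and DMSO. ADARB1, which edits adenosine to inosine in RNA, differed by 1.17 ± 0.07, with changes against DMSO of 1.55 with JQ1 and 0.38 with RVX-208. MYLIP, the ubiquitin ligase that marks the LDL receptor for degradation, differed by 1.16 ± 0.09, with 1.37 with JQ1 and 0.22 with RVX-208 against DMSO. The alpha-arrestin TXNIP, among the brightest of them, measured 12.71 and 12.76 with JQ1, against 11.83, 11.67 and 11.73 with RVX-208, and 11.25, 11.20 and 11.17 in DMSO, a difference of 0.99 ± 0.06 (adjusted p = 1.21e-04). The histone gene H2BC21 measured 9.50 and 9.51 with JQ1, against 8.54, 8.54 and 8.52 with RVX-208, a difference of 0.97 ± 0.09.

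RSRP1, ZSWIM6, WDR47, CSRNP2 and ZNF701 rose by 1.00 to 1.18 log2 units. MGAM, the intestinal maltase-glucoamylase, rose by 1.04 ± 0.12 and measured 5.25 and 5.58 with JQ1, against 4.33, 4.36 and 4.44 with RVX-208. Its DMSO arrays, at 4.50, 4.30 and 4.65, overlapped those of RVX-208. Of the 15 rises, 14 held without each array. The exception was CDK11B, a cyclin-dependent kinase linked to splicing, with 4.26 and 5.05 with JQ1, against 3.66, 3.66 and 3.10 with RVX-208 (1.18 ± 0.25, adjusted p = 0.0204). Leaving out JQ1 replicate 2 gave 0.783 (adjusted p = 0.124), and leaving out RVX-208 replicate 3 gave 0.994 (adjusted p = 0.0523).

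The 15 largest falls lay between −2.32 and −1.02 log2 units. ART4, an ADP-ribosyltransferase-like protein that carries the Dombrock blood group, measured 5.89 and 6.16 with JQ1, against 7.73, 7.70 and 7.76 with RVX-208, and 8.01, 7.98 and 7.76 in DMSO, a difference of −1.70 ± 0.10 (3.26-fold, adjusted p = 1.21e-04). KANK1, an adaptor at focal adhesions, measured 7.51 and 7.56 with JQ1, against 8.80, 8.84 and 8.83 with RVX-208, and 8.97, 8.82 and 8.76 in DMSO, a difference of −1.29 ± 0.07. In ART4 and KANK1 the RVX-208 and DMSO arrays met or overlapped, while the JQ1 arrays lay more than 1 unit below both. PALMD, which encodes palmdelphin, differed by −1.32 ± 0.08, with changes against DMSO of −1.69 with JQ1 and −0.37 with RVX-208. The EGF-family ligand EREG measured 6.39 and 5.67 with JQ1, against 7.31, 7.36 and 7.29 with RVX-208, and 7.80, 8.0 and 7.96 in DMSO, a difference of −1.29 ± 0.17 (adjusted p = 0.00271). Its JQ1 arrays lay further apart than its RVX-208 or DMSO arrays, yet below all of them.

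ZBTB38, a zinc finger protein that binds methylated DNA, gave one of the most even falls, with 7.90 and 7.90 with JQ1, against 9.00, 9.02 and 8.93 with RVX-208, and 9.03, 9.05 and 9.02 in DMSO (−1.09 ± 0.05, adjusted p = 5.54e-05). DCLRE1A, a nuclease of DNA crosslink repair, differed by −1.13 ± 0.09, with changes against DMSO of −1.12 with JQ1 and 0.01 with RVX-208. ATF7IP, a partner of the histone methyltransferase SETDB1, differed by −1.04 ± 0.11. GPAM, the mitochondrial enzyme that starts triglyceride synthesis, measured 8.31 and 8.51 with JQ1, against 9.50, 9.45 and 9.40 with RVX-208, and 9.88, 9.86 and 9.81 in DMSO (−1.04 ± 0.07). Here the RVX-208 arrays lay below the DMSO arrays, and the JQ1 arrays further below. C3orf33, ZNF385B, KLHL14 and MAB21L3 fell by 1.02 to 1.16.

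BDP1 and TMEM106A were the 2 of the 15 falls that did not hold. BDP1, a subunit of the RNA polymerase III factor TFIIIB, had a dim probe set with 1.82 and 2.06 with JQ1, against 4.47, 3.97 and 2.55 with RVX-208 and 2.19, 2.53 and 2.17 in DMSO (−1.72 ± 0.45, adjusted p = 0.0450). Its adjusted p was 0.0679, 0.0639 and 0.0643 without DMSO replicates 1, 2 and 3, 0.204 and 0.141 without JQ1 replicates 1 and 2, and 0.09 and 0.118 without RVX-208 replicates 1 and 2. TMEM106A differed by −1.13 ± 0.25 (adjusted p = 0.0246), and its adjusted p was 0.165 and 0.0618 without JQ1 replicates 1 and 2, and 0.0724 and 0.0651 without RVX-208 replicates 2 and 3.

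**Figure D2:**
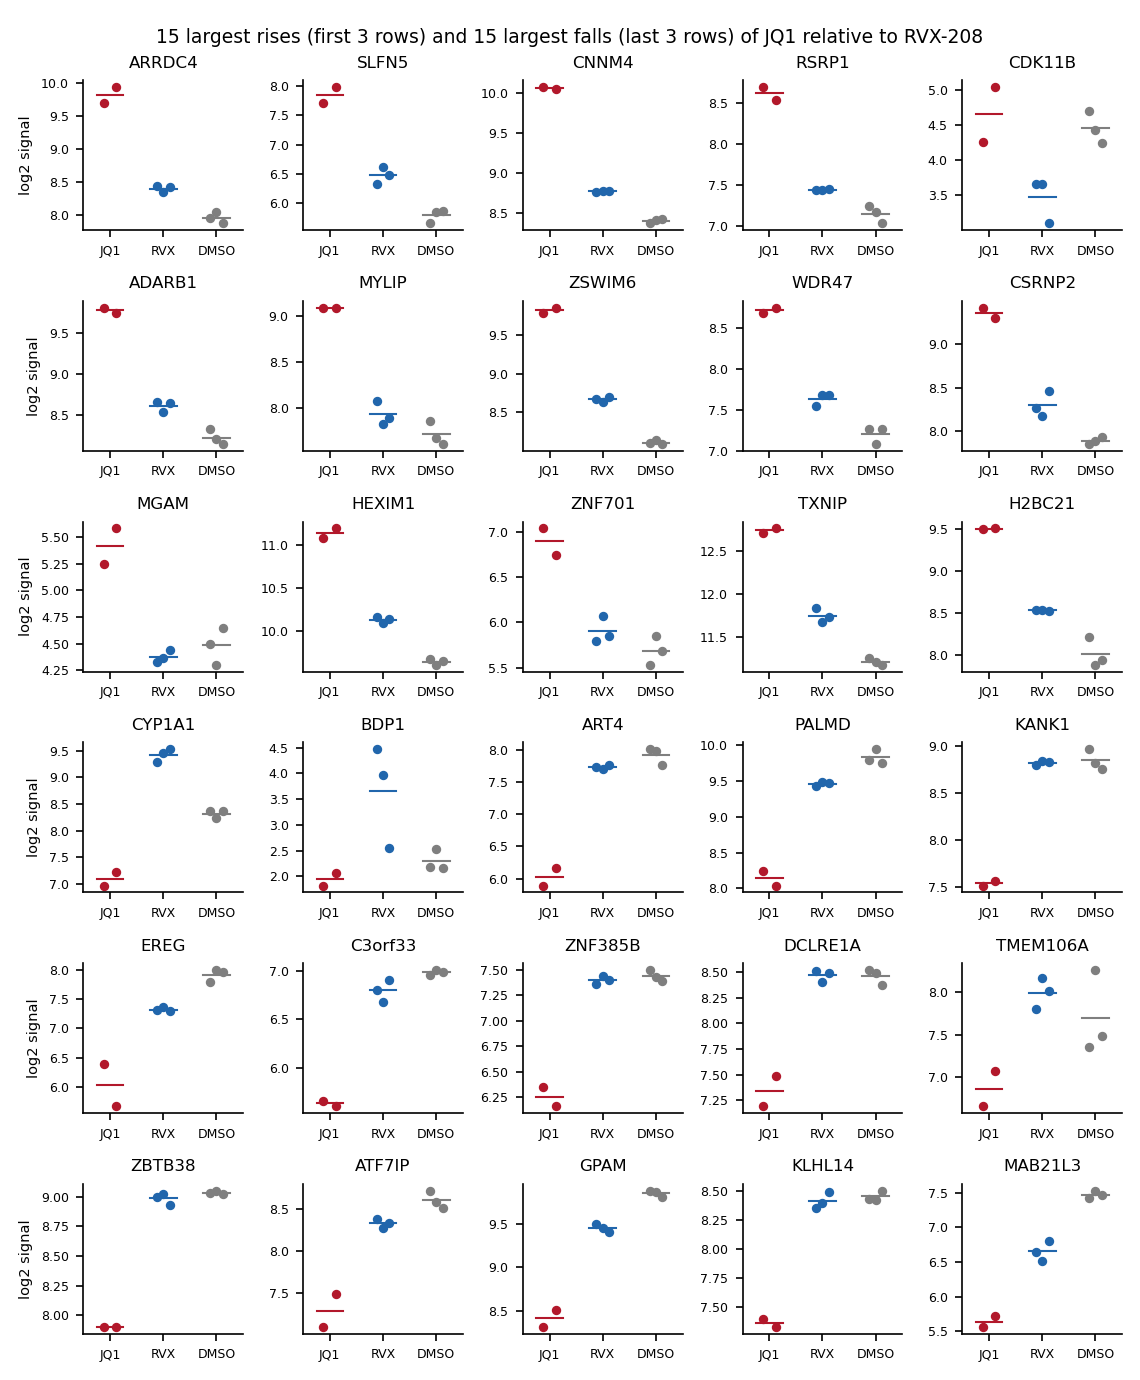
Points are the log2 signals of single arrays (2 JQ1, 3 RVX-208, 3 DMSO) and bars the group means, for the 15 largest rises in the first 3 rows and the 15 largest falls in the last 3. Axes differ between genes. In ARRDC4, HEXIM1 and TXNIP the RVX-208 arrays lie between JQ1 and DMSO, and in CYP1A1 the DMSO arrays lie between JQ1 and RVX-208.

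For 5 of the 1952 called genes, JQ1 and RVX-208 were each called against DMSO in opposite directions. CYP1A1 was the clearest, with changes of −1.22 with JQ1 (adjusted p = 1.09e-04) and 1.10 with RVX-208 (adjusted p = 0.00677), both called in all of the 8 fits without 1 array. CCN2, a secreted matrix protein and a common target of YAP and TGF-beta signalling, measured 11.95 and 11.88 with JQ1, against 11.09, 11.12 and 11.17 with RVX-208, with DMSO at 11.40, 11.44 and 11.38. Its direct difference was 0.79 ± 0.05 (adjusted p = 2.02e-04), with 0.51 with JQ1 and −0.28 with RVX-208 against DMSO. The related gene CCN1 showed the same order, with 8.41 and 8.52 with JQ1, 7.85, 7.88 and 8.0 with RVX-208 and 8.22, 8.14 and 8.11 in DMSO. Its direct difference of 0.56 ± 0.07 held without each array (adjusted p = 0.00190), and its RVX-208 change of −0.24 had an adjusted p of 0.0525.

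SYNM, which encodes the intermediate filament protein synemin, measured 8.54 and 8.60 with JQ1, against 7.97, 7.95 and 8.0 with RVX-208, and 8.14, 8.20 and 8.17 in DMSO (0.59 ± 0.05, adjusted p = 4.62e-04). IFT70B, a part of the transport machinery of cilia, measured 5.91 and 6.05 with JQ1, against 6.74, 6.81 and 6.64 with RVX-208, and 6.33, 6.39 and 6.30 in DMSO (−0.75 ± 0.07, adjusted p = 5.90e-04). DET1, a substrate adaptor of a ubiquitin ligase, measured 6.29 and 6.24 with JQ1, against 6.94, 6.99 and 6.99 with RVX-208, and 6.57, 6.81 and 6.67 in DMSO (−0.71 ± 0.07, adjusted p = 8.89e-04). In SYNM, IFT70B and DET1 no array of one group overlapped those of another, and the DMSO arrays lay in between. The direct calls of all 5 genes held without each array, whereas the RVX-208 calls against DMSO were less firm: that of CCN2 was made in 3 of the 8 fits without 1 array, that of IFT70B in 4, that of DET1 in 1 and that of SYNM in 0. The call of IFT70B with JQ1 against DMSO was missed without JQ1 replicate 1 (−0.29, adjusted p = 0.0611).

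**Figure D3:**
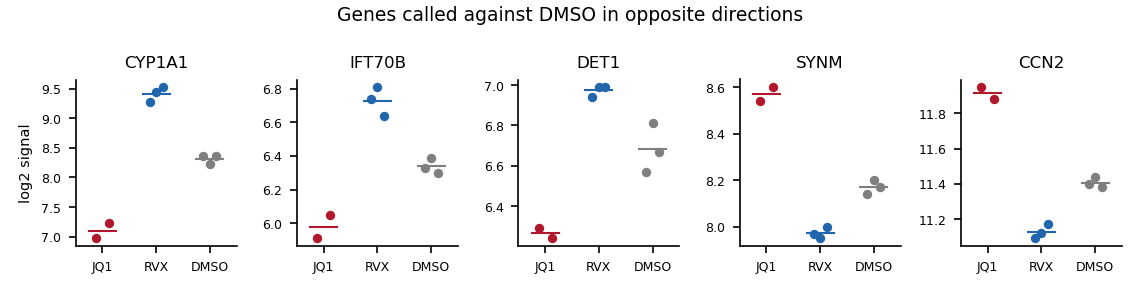
Points are the log2 signals of single arrays and bars the group means for the 5 genes called against DMSO in opposite directions; axes differ between genes. The DMSO arrays lie between the other groups in each panel, and CYP1A1 has the widest gap, from 7.23 for the higher JQ1 array to 9.28 for the lowest RVX-208 array.

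RVX-208 lay further from DMSO than JQ1 in 141 of the 1952 called genes. In 48 of these RVX-208 was also called against DMSO and JQ1 was not called in the opposite direction, and 36 of the 48 were higher with JQ1. Of the 12 with the widest direct difference, 2 held without each array. CD177, a surface protein best known from neutrophils and dim in these cells, measured 4.12 and 4.02 with JQ1, against 3.64, 3.46 and 3.51 with RVX-208, and 4.08, 4.03 and 3.99 in DMSO (0.53 ± 0.07, adjusted p = 0.00249). MED7, a subunit of the middle module of Mediator, measured 6.94 and 6.97 with JQ1, against 7.39, 7.30 and 7.48 with RVX-208, and 7.08, 7.11 and 7.14 in DMSO (−0.44 ± 0.06, adjusted p = 0.00405). For CD177 the JQ1 and DMSO arrays overlapped with RVX-208 below, and for MED7 RVX-208 lay above both. The RVX-208 change against DMSO was −0.50 for CD177 and 0.28 for MED7, and it was called in 7 and 2 of the 8 fits without 1 array. The other 10, CDK11B, MOG, DEPDC4, CEP295NL, CDSN, METTL1, PTGR2, HTATSF1P2, ZNF671 and CCDC170, each lost the direct call without at least 1 of the JQ1 arrays. The highest adjusted p in a fit without 1 array was between 0.0764 for HTATSF1P2 and 0.194 for METTL1.

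Some genes moved away from DMSO by a similar amount with both compounds. There were 267 genes called against DMSO in the same direction by both whose 95% confidence interval of the direct difference lay within −0.25 to 0.25, out of 6385 genes (35.8%) with so narrow an interval whatever their change. The median half-width of that interval over all genes was 0.173. AKR1D1, the steroid reductase that acts in bile acid synthesis, measured 7.99 and 8.02 with JQ1, against 8.16, 8.14 and 8.06 with RVX-208, and 8.64, 8.54 and 8.61 in DMSO, with an interval for JQ1 minus RVX-208 of −0.24 to 0.02. The Notch ligand JAG1 measured 10.44 and 10.45 with JQ1, against 10.59, 10.49 and 10.50 with RVX-208, and 11.12, 10.99 and 10.99 in DMSO, with an interval of −0.23 to 0.06. SH3TC2 measured 5.49 and 5.26 with JQ1, against 5.46, 5.32 and 5.33 with RVX-208, with an interval of −0.19 to 0.19. In SH3TC2 the arrays of both compounds overlapped, and its change against DMSO was −0.63 with each. GRAMD1B, a carrier of cholesterol between membranes, had an interval of −0.21 to 0.08, RWDD2B one of −0.07 to 0.19 and AASDH one of −0.03 to 0.25. For these 6 genes the calls of both compounds against DMSO were made in all of the 8 fits without 1 array. GOLPH3L, TCAIM, ATXN7L1 and SNORD116-12 had intervals between −0.19 and 0.25, and the RVX-208 call against DMSO was missed in at least 1 such fit.

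**Figure D4:**
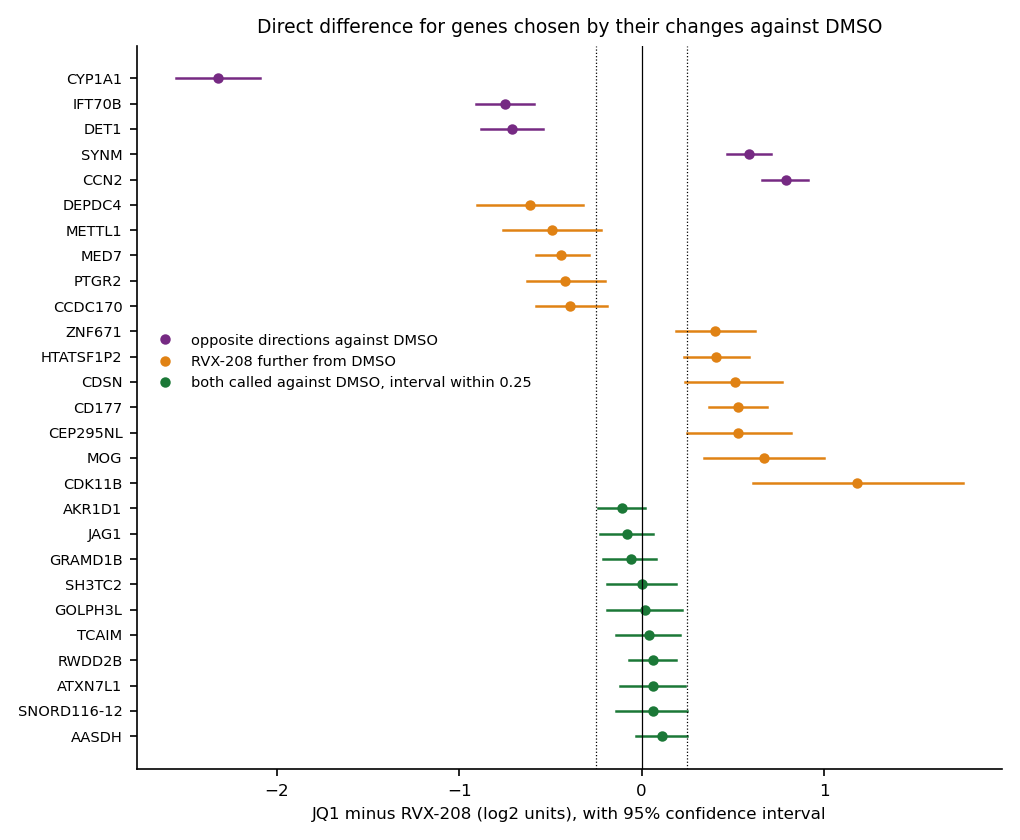
Points are the differences JQ1 minus RVX-208 in log2 units and lines their 95% confidence intervals, for the genes called in opposite directions against DMSO (purple), the 12 with RVX-208 further from DMSO (orange) and 10 called against DMSO in the same direction by both (green). Dotted lines mark −0.25 and 0.25, and CYP1A1 lies at −2.32.

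Among the BET proteins themselves and the P-TEFb machinery, 5 of 18 measured genes were higher and 1 lower (33.3% called, against 10.9% of all genes). The median difference was 0.099, against 0.003 for all genes. BRD2 measured 11.37 and 11.29 with JQ1, against 10.68, 10.62 and 10.63 with RVX-208, and 10.20, 10.37 and 10.38 in DMSO (0.69 ± 0.07, adjusted p = 8.70e-04). The BRD2 arrays of the 3 groups did not overlap. BRD3 measured 9.20 and 9.26 with JQ1, against 9.18, 9.09 and 9.12 with RVX-208 (0.10 ± 0.05, adjusted p = 0.311), with an interval of −0.02 to 0.22, so a difference of that size was not resolved. AFF4, the scaffold of the super elongation complex, differed by 0.42 ± 0.07 (adjusted p = 0.00589). HEXIM2, the paralogue of HEXIM1, went the other way, with 9.04 and 9.16 with JQ1, against 9.89, 9.77 and 9.69 with RVX-208, and 9.94, 9.97 and 9.89 in DMSO (−0.68 ± 0.07, adjusted p = 9.94e-04). The calls of BRD2, HEXIM1, AFF4 and HEXIM2 held without each array. The count of higher members was 3 without JQ1 replicate 2, when CCNT1 and MEPCE were not called. CDK9, the kinase of P-TEFb, differed by 0.11 ± 0.05 (adjusted p = 0.195).

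RNA polymerase II and its elongation factors had 2 of 25 higher and 1 lower, all of which held. POLR2A, the largest subunit, measured 11.21 and 11.32 with JQ1, against 10.55, 10.49 and 10.35 with RVX-208, and 10.43, 10.41 and 10.40 in DMSO (0.80 ± 0.07, adjusted p = 4.60e-04). CTR9, of the PAF complex, differed by 0.65 ± 0.07, and NELFA, of the negative elongation factor, by −0.47 ± 0.05. In POLR2A the RVX-208 and DMSO arrays overlapped. Mediator had 0 of 28 higher and 3 lower, MED7, MED22 and MED1, of which MED7 held. Its called share of 10.7% was near that of all genes too. MED22 and MED1 were both missed when either JQ1 array or RVX-208 replicate 1 was left out.

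Every core histone gene that was called was higher with JQ1. Of 25 measured, 8 were higher (32.0%, against 4.16% of all genes) and 0 lower. Their median difference was 0.149, and it was 0.086 with housekeeping centring. H2BC12 measured 8.53 and 8.48 with JQ1, against 7.30, 7.82 and 7.66 with RVX-208, and 7.04, 6.85 and 6.89 in DMSO (0.91 ± 0.13, adjusted p = 0.00412). H2BC8 differed by 0.57 ± 0.08, H2AJ by 0.40 ± 0.06 and H2AC11 by 0.31 ± 0.05. These 3, H2BC12 and H2BC21 held without each array, and the count of 8 became 5 without JQ1 replicate 1, and H2BC5, a further member called with all arrays, was missed without either JQ1 array. Histone genes are near-identical copies of each other in part, so a probe set may read more than its own gene.

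Among chromatin enzymes and readers, 2 of 30 were higher and 2 lower, of which SIRT1 and ZMYND8 held. The called share was 13.3%, against 10.9% of all genes. ZMYND8, a bromodomain protein that binds acetylated histones, measured 9.46 and 9.38 with JQ1, against 10.23, 10.23 and 10.20 with RVX-208, and 10.33, 10.30 and 10.25 in DMSO (−0.80 ± 0.05, adjusted p = 1.80e-04). SIRT1, an NAD-dependent deacetylase, differed by 0.66 ± 0.07 (adjusted p = 8.79e-04). The other call higher, SETD2, was missed without JQ1 replicate 2, and the other call lower, HDAC7, was missed in each of the 8 fits without 1 array.

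Of 9 genes used elsewhere as reporters that rise under BET inhibitors, 7 were higher and 1 lower with JQ1. This made 88.9% called, against 10.9% of all genes, with a median difference of 0.851. As with the other lists, earlier results of these data were known when the genes were chosen, so the count is not independent of these data. Against DMSO the same 9 had median changes of 1.49 with JQ1 and 0.539 with RVX-208. KRCC1 measured 7.81 and 7.70 with JQ1, against 6.73, 6.92 and 7.06 with RVX-208 (0.85 ± 0.09, adjusted p = 0.00118). SERPINI1, which encodes neuroserpin, measured 8.15 and 8.20 with JQ1, against 7.53, 7.56 and 7.77 with RVX-208, and 7.59, 7.21 and 6.93 in DMSO. Its difference of 0.55 ± 0.16 was not called (adjusted p = 0.0677), although the JQ1 and RVX-208 arrays did not overlap, and it was called without DMSO replicate 1 (adjusted p = 0.0175) and without DMSO replicate 3 (0.0273). The 1 reporter on this list that was lower is ZMYND8. Of 10 reporters that fall, 4 were lower and 0 higher, with a median of −0.173. The count was 2 without JQ1 replicate 1 or RVX-208 replicate 1, and MYC and EREG held.

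MYC, the growth-promoting transcription factor, measured 10.42 and 10.28 with JQ1, against 10.78, 10.85 and 10.78 with RVX-208, and 11.02, 11.03 and 11.03 in DMSO (−0.45 ± 0.06, adjusted p = 0.00273). The 3 groups did not overlap. MXD1, which competes with MYC for MAX, differed by 0.69 ± 0.07 in the other direction (adjusted p = 6.80e-04), with 1.01 with JQ1 and 0.31 with RVX-208 against DMSO. MLX, the partner of the glucose-sensing factors, differed by −0.26 ± 0.06 (adjusted p = 0.0269), and its call was missed without either JQ1 array and without each of the 3 RVX-208 arrays, with an adjusted p of up to 0.16. The other 10 measured members of the MYC and MAX network were not called.

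Ribosome biogenesis genes, many of them MYC targets, fell without exception among those called. Of 20 measured, 7 were lower (35.0%, against 6.78% of all genes) and 0 higher, with a median of −0.151. RRS1 measured 9.97 and 9.84 with JQ1, against 10.40, 10.34 and 10.36 with RVX-208 (−0.46 ± 0.06, adjusted p = 0.00196), and WDR43 differed by −0.36 ± 0.05. These 2 held, and leaving out JQ1 replicate 1 gave a count of 3, leaving out JQ1 replicate 2 one of 2 and leaving out RVX-208 replicate 3 one of 4. DEAD and DEAH box RNA helicases had 12 of 50 lower and 1 higher (26.0% called, against 10.9% of all genes), with a median of −0.108. DDX52 (−0.49 ± 0.06), DHX35 (−0.59 ± 0.06), DHX33 (−0.43 ± 0.05) and DHX30 (−0.35 ± 0.05) held, the count of 12 became 6 without JQ1 replicate 1 and 4 without JQ1 replicate 2, and the 1 higher, DHX9, did not hold.

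Mitochondrial ribosomal protein genes had 13 of 72 lower (18.1%, against 6.78% of all genes) and 0 higher, with a median of −0.126. MRPL46 held, with 9.86 and 9.95 with JQ1, against 10.29, 10.38 and 10.39 with RVX-208, and 10.44, 10.38 and 10.29 in DMSO (−0.45 ± 0.07, adjusted p = 0.00431). The RVX-208 and DMSO arrays overlapped. Without JQ1 replicates 1 and 2 the count was 5 and 3, and without RVX-208 replicates 1, 2 and 3 it was 7, 7 and 6. Among 62 cytosolic ribosomal protein genes, the single call that held was RPL7L1, a ribosomal protein-like gene (−0.99 ± 0.10, adjusted p = 9.53e-04). Of 77 oxidative phosphorylation genes, 0 calls held. The medians of these last 2 lists, 0.013 and 0.035, turned negative with housekeeping centring.

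In the AHR pathway, 3 of 10 measured genes were called (30.0%, against 10.9% of all genes), and CYP1A1 and TIPARP went opposite ways. TIPARP, an AHR-induced ADP-ribosyltransferase that represses the receptor, measured 9.85 and 9.89 with JQ1, against 9.30, 9.13 and 9.26 with RVX-208, and 9.02, 9.07 and 8.90 in DMSO (0.64 ± 0.07, adjusted p = 0.00134). TIPARP held, and it was thus higher with the compound with which CYP1A1 was lower. AHR itself differed by 0.33 ± 0.07 (adjusted p = 0.0156), and its call was missed without JQ1 replicate 2 (adjusted p = 0.0991) and RVX-208 replicate 3 (0.0514). CYP1B1, another AHR target, was dim in all arrays and differed by 0.02 ± 0.11 (adjusted p = 0.942). Of 16 other drug metabolism genes, 0 calls held.

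Immediate early and MAPK feedback genes, which respond within minutes to growth signals, had 9 of 26 higher with JQ1, 1 lower and 16 not called. This made 38.5% called, against 10.9% of all genes, with a median of 0.106. EGR1 measured 9.43 and 9.56 with JQ1, against 8.93, 8.98 and 8.99 with RVX-208, and 8.78, 8.91 and 8.91 in DMSO (0.52 ± 0.07, adjusted p = 0.00209). The survival factor MCL1 measured 11.19 and 11.19 with JQ1, against 10.66, 10.76 and 10.72 with RVX-208, and 10.76, 10.77 and 10.65 in DMSO (0.48 ± 0.06, adjusted p = 0.00199). The RVX-208 and DMSO arrays overlapped for MCL1 and lay next to each other for EGR1. DUSP1, a phosphatase that switches off MAP kinases, differed by 0.38 ± 0.06. EGR1, MCL1 and DUSP1 held, and the count of 9 became 4 without JQ1 replicate 1. The 1 lower member, ETV4, did not hold.

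EGF-family ligands and ERBB receptors split. The ligand HBEGF measured 8.51 and 8.32 with JQ1, against 7.73, 7.61 and 7.72 with RVX-208, and 7.52, 7.56 and 7.57 in DMSO (0.73 ± 0.07, adjusted p = 6.80e-04), opposite in sign to EREG above. The receptor ERBB3 measured 9.58 and 9.58 with JQ1, against 9.91, 9.88 and 9.91 with RVX-208 (−0.32 ± 0.05, adjusted p = 0.00712). Of 12 measured, 1 was higher and 3 lower (33.3% called, against 10.9% of all genes).

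Among p53 targets and apoptosis genes, 9 of 24 were higher and 3 lower, with a median of 0.088. BTG1, an antiproliferative factor, measured 10.24 and 10.23 with JQ1, against 9.30, 9.28 and 9.32 with RVX-208, and 9.09, 8.93 and 8.94 in DMSO (0.94 ± 0.06, adjusted p = 1.70e-04). The BH3-only killer BCL2L11 measured 8.62 and 8.68 with JQ1, against 8.0, 7.99 and 8.06 with RVX-208, and 7.91, 7.96 and 7.75 in DMSO (0.63 ± 0.07, adjusted p = 0.00118). The survival gene BCL2L1 measured 10.40 and 10.39 with JQ1, against 10.97, 11.08 and 11.10 with RVX-208, and 11.19, 11.15 and 11.12 in DMSO (−0.65 ± 0.06, adjusted p = 5.04e-04). Killer and survival genes each went both ways. Of the killer genes, BCL2L11 was higher, while the death receptor FAS was lower (−0.54 ± 0.09, limma adjusted p = 0.00621), a call that did not hold. Of the survival genes, BCL2L1 was lower and MCL1 higher. BTG1, BCL2L11, BCL2L1 and MCL1 held. GADD45B (0.45 ± 0.06) and PLK3 (0.44 ± 0.07) held as well, and the count of 9 became 4 without JQ1 replicate 2 and 5 without RVX-208 replicate 2. The count of 3 lower became 1 without JQ1 replicate 1. CDKN1A, the p53 target that arrests the cycle, differed by 0.00 ± 0.06 with an interval of −0.13 to 0.12, and it lay 0.30 below DMSO with both compounds.

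Transcription factors of the hepatocyte had 7 of 21 lower (33.3%, against 6.78% of all genes) and 0 higher. Their median of −0.177 stayed between −0.241 and −0.145 under every setting tried. HNF4G measured 6.46 and 6.57 with JQ1, against 7.42, 7.39 and 7.39 with RVX-208, and 7.58, 7.49 and 7.45 in DMSO (−0.88 ± 0.06, adjusted p = 1.87e-04). PROX1, a homeobox regulator of liver development, measured 7.96 and 8.24 with JQ1, against 8.87, 8.97 and 8.88 with RVX-208, and 9.27, 9.30 and 9.06 in DMSO (−0.81 ± 0.10, adjusted p = 0.00193). These 2 held, and FOXA2, TBX3, FOXA1, RXRA and ONECUT1 were also called. The count of 7 became 2 without JQ1 replicate 2 and 4 without RVX-208 replicate 2. Of 11 hepatocyte identity genes and 21 acute phase genes 0 were called, against 10.9% of all genes, and the difference between these lists was not tested.

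Genes of lipid and bile acid handling differed one by one. BAAT, which conjugates bile acids to glycine or taurine, measured 5.56 and 5.63 with JQ1, against 6.41, 6.40 and 6.48 with RVX-208, and 6.57, 6.73 and 6.54 in DMSO (−0.83 ± 0.07, adjusted p = 4.09e-04). Of 18 bile acid genes 3 were lower (16.7%, against 6.78% of all genes) and 0 higher. Fewer were lower without JQ1 replicate 1, when that group held 1 array. PPARGC1A, the coactivator of mitochondrial and gluconeogenic genes, measured 7.71 and 7.59 with JQ1, against 8.49, 8.30 and 8.42 with RVX-208 (−0.75 ± 0.07, adjusted p = 5.90e-04). PNPLA2, the main triglyceride lipase, differed by 0.41 ± 0.06. Of 25 fatty acid and triglyceride genes, 1 was higher and 5 lower (24.0% called, against 10.9% of all genes). Of these, PNPLA2, GPAM and PPARGC1A held. The count of 5 became 3 without DMSO replicate 2 and 2 without either JQ1 array or RVX-208 replicates 2 or 3.

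For APOA1 a difference was not resolved. APOA1 had a dim probe set, with a mean of 5.01 over all arrays and an SD within groups of 0.67 to 0.92. How well this probe set reads APOA1 was not tested. Its probe set measured 4.51 and 5.76 with JQ1, against 5.54, 4.07 and 5.75 with RVX-208, and 5.06, 4.05 and 5.31 in DMSO, so the groups overlapped throughout (0.01 ± 0.57, interval −1.30 to 1.32, adjusted p = 0.994). Of 17 apolipoprotein and HDL genes, 0 calls held. Of 21 cholesterol genes 2 were higher, the sterol synthesis enzymes IDI1 (0.45 ± 0.07) and TM7SF2 (0.36 ± 0.06), and the count was 1 without either JQ1 array. The called share of the cholesterol list was 9.52%, against 10.9% of all genes. Against DMSO, IDI1 changed by 0.91 with JQ1 and 0.45 with RVX-208. The glucose transporter SLC2A2 gave the single call that held among 25 genes of glycolysis, gluconeogenesis and hypoxia (−0.40 ± 0.06, adjusted p = 0.00335).

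Iron and BMP signalling gave 4 of 19 lower, all of which held, and 1 higher, ID1, which did not. HAMP, which encodes the iron hormone hepcidin, measured 8.86 and 8.73 with JQ1, against 9.46, 9.55 and 9.55 with RVX-208, and 9.92, 9.65 and 9.74 in DMSO (−0.73 ± 0.09, adjusted p = 0.00152). The ligand BMP4 measured 10.71 and 10.55 with JQ1, against 11.14, 11.09 and 11.12 with RVX-208 (−0.49 ± 0.06). SMAD9, a signal transducer of BMP receptors, differed by −0.52 ± 0.07, and the inhibitory SMAD7 by −0.51 ± 0.07. For these 4 genes every JQ1 array lay below every RVX-208 array. The share of lower members was 21.1%, against 2.06% of all genes whose lower call held. The list as a whole was not lower, with a median difference of 0.043 against 0.003 for all genes.

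Among Wnt genes the largest differences were in regulators of the pathway. DKK1, a secreted Wnt antagonist and a Wnt target, measured 10.65 and 10.62 with JQ1, against 11.54, 11.57 and 11.64 with RVX-208, and 11.93, 11.83 and 11.83 in DMSO (−0.94 ± 0.06, adjusted p = 1.21e-04). RNF43, which removes Wnt receptors, measured 9.23 and 9.09 with JQ1, against 9.94, 9.87 and 9.86 with RVX-208, and 9.91, 10.01 and 9.93 in DMSO (−0.73 ± 0.06, adjusted p = 4.58e-04). BAMBI, a decoy receptor, differed by 0.41 ± 0.06 in the other direction. Of 15 Wnt genes 1 was higher and 3 lower (26.7% called, against 10.9% of all genes). Among 25 YAP, TGF-beta and matrix genes 5 were higher and 3 lower (32.0% called). CCN1 and CCN2 were the higher ones that held. The lower ones, which held, were SMAD7, the focal adhesion gene TNS4 and the receptor TGFBR2. TNS4 measured 7.73 and 7.86 with JQ1, against 8.78, 8.68 and 8.75 with RVX-208, and 9.29, 9.39 and 9.29 in DMSO (−0.94 ± 0.07, adjusted p = 2.02e-04). TGFBR2 differed by −0.60 ± 0.06. The count of 5 became 3 without DMSO replicate 2, JQ1 replicate 1 or RVX-208 replicates 1 or 2, and 2 without JQ1 replicate 2 or RVX-208 replicate 3.

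Stress responses moved in both directions. Of 25 genes of the unfolded protein and integrated stress responses, 5 were higher and 3 lower (32.0% called, against 10.9% of all genes). HERPUD1, which serves degradation at the endoplasmic reticulum, measured 11.19 and 11.11 with JQ1, against 10.78, 10.72 and 10.76 with RVX-208 (0.39 ± 0.06, adjusted p = 0.00497). TRIB3 (−0.71 ± 0.10), STC2 (−0.65 ± 0.08) and XBP1 (−0.43 ± 0.07) were lower, and with HERPUD1 these were the members that held. The count of 5 became 1 without JQ1 replicate 1 and 3 without RVX-208 replicates 1 or 2. The chaperone DNAJB1 measured 11.94 and 11.79 with JQ1, against 11.37, 11.34 and 11.29 with RVX-208 (0.53 ± 0.07, adjusted p = 0.00253), and it gave the single call that held among 19 heat shock genes. KEAP1, which holds back the antioxidant factor NRF2, measured 9.02 and 9.02 with JQ1, against 9.66, 9.52 and 9.61 with RVX-208, and 9.71, 9.60 and 9.66 in DMSO (−0.58 ± 0.06, adjusted p = 9.96e-04). Of the NRF2 targets, SRXN1 was higher (0.41 ± 0.06) and the cystine carrier SLC7A11 lower (−0.48 ± 0.07).

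Calls that held were counted among cell cycle and immune genes, against 3.07% of all genes. Of 25 G1/S genes these were CCNE2, a cyclin (0.48 ± 0.07), and E2F2, a factor that drives S phase genes (−0.50 ± 0.08). Of 26 mitotic genes it was BUB1B, a spindle checkpoint kinase (−0.42 ± 0.06). Of 25 NF-kB and cytokine genes it was NFKBIZ (0.46 ± 0.05), and of 23 interferon and antigen presentation genes SLFN5. Of 33 complement and coagulation genes it was C4BPB, a complement regulator (−0.36 ± 0.05).

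Among transporters, 5 of 17 amino acid carriers and 6 of 25 ABC and organic ion transporters were lower. On each list 1 was higher (SLC16A10 and ABCA5), neither of which held. The calls made up 35.3% and 28.0% of these lists, against 10.9% of all genes. SLC7A11 and SLC22A9 (−0.41 ± 0.06) held. Without JQ1 replicate 1 the lower counts were 1 and 1, and the amino acid carriers had 2 without JQ1 replicate 2 or RVX-208 replicate 2, and the ABC and organic ion transporters 3 without RVX-208 replicate 1. Of 26 splicing regulators, 0 calls held. Of 36 proteasome genes, PSMD5 was lower (−0.53 ± 0.06, adjusted p = 0.00101) and held.

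The ZNF genes, many of which carry a KRAB repressor domain, had 42 of 464 higher and 44 lower (18.5% called, against 10.9% of all genes). Of these, 7 higher and 11 lower calls held. ZNF654 (0.83 ± 0.09) was among the higher and ZNF114 (−0.92 ± 0.07) among the lower. Without JQ1 replicates 1 and 2 the higher count was 15 and 12 and the lower count 19 and 24. Without RVX-208 replicates 1, 2 and 3 the higher count was 18, 19 and 20, and the lower count was 27 without replicates 2 or 3. Of 188 small nucleolar and Cajal body RNAs, 9 were higher and 1 lower (SCARNA16, which did not hold), and SCARNA7 (0.45 ± 0.07) and SNORA67 held. The count of 9 became 4 without JQ1 replicate 1. Of 174 microRNA host and precursor genes 5 were higher, and MIR15A measured 7.09 and 6.83 with JQ1, against 6.23, 6.05 and 6.23 with RVX-208, and 5.55, 5.74 and 5.58 in DMSO (0.79 ± 0.10, adjusted p = 0.00204). Without either JQ1 array the count was 3. Of 167 long intergenic noncoding RNAs, 0 calls held. With all arrays, the called share was 5.32% for the small nucleolar and Cajal body RNAs and 2.87% for the microRNA genes. For the long intergenic noncoding RNAs it was 2.4%, and all 3 lay below the 10.9% of all genes.

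**Figure D5:**
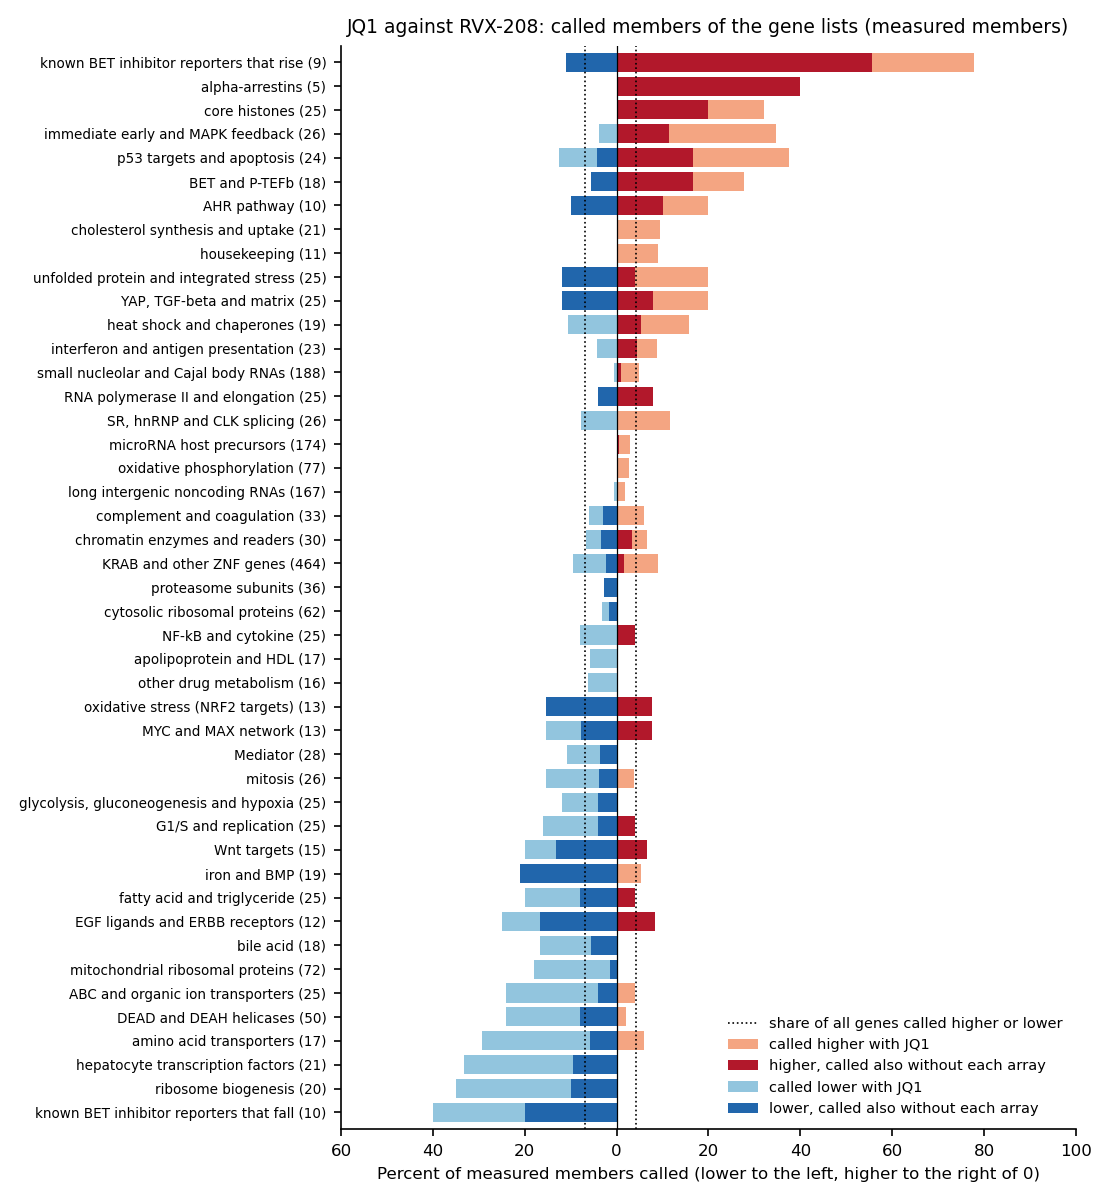
Bars give the percent of the measured members of each list (their number in brackets) called higher with JQ1 to the right and lower to the left; the dark part holds in every fit without 1 array. Dotted lines mark the 4.16% and 6.78% of all genes, and the reporters that rise and the hepatocyte transcription factors lie far from them on opposite sides.

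Promoters of called genes were described by the same 5 motifs, for the 13865 tested genes with a window in the RefSeq table. CCAAT, on either strand, was in 46.3% of the 616 windows of genes higher with JQ1, 31.1% of the 1012 windows of genes lower and 36.4% of all. GGGCGG was in 73.9% of the windows of higher genes, 61.2% of those of lower genes and 60.1% of all. TATAAA was in 10.2%, 6.13% and 9.03% in the same order. In the 76 windows of genes at least 1.5-fold higher and the 133 of genes at least 1.5-fold lower, TATAAA was in 21.1% and 12.8%, GGGCGG in 71.1% and 46.6%, and CCAAT in 47.4% and 29.3%. Among all windows of higher genes, of lower genes and of all genes, GCGTG was in 51.0%, 48.4% and 44.7%. CACGTG was in 9.25%, 12.2% and 8.89% in that order. In the windows of genes at least 1.5-fold higher and lower, GCGTG was in 46.1% and 44.4%, and CACGTG in 9.21% and 8.27%. These shares are a description of the windows, with no test.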

How the data were processed

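The authors' deposited table holds log2 values per transcript cluster for each array, made with RMA (background correction, quantile normalisation and probe summary) in R 2.15.3 with limma 3.14.4, per the submitters' processing notes. The filter that led to its 19816 probe sets is not given in the sources used here. The authors' deposited table of comparisons (log2 fold changes, with an F score and a p-value per probe set) was used only as a check: its log2 changes equalled differences of group means within 1e-04 for 19815 probe sets.

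Probe sets with several genes (997) or none (960) in the platform annotation were left out of the gene tests, and for 14 genes the brighter probe set was kept, which left 17845 genes. The identifiers of 17835 matched RefSeq. Promoters came from the RefSeq table of GRCh38.p14. A mean per group was fitted over all 8 arrays with limma 3.58.1 in R 4.3.3 (lmFit, eBayes, 8.55 degrees of freedom), and JQ1 minus RVX-208 was tested two-sided with Benjamini-Hochberg adjustment over all genes. Tables and plots used Python 3.11.15, pandas 2.3.3, numpy 2.4.6 and matplotlib 3.10.9. On simulated data with 200 changed genes among 17845, the fit recovered 21.3% of changes of 0.3, 91.9% of 0.6 and 99.2% of 1 log2 unit, with 4.82% false among its calls. The simulated noise was normal, independent between genes and set to the fitted spread, and fewer genes changed than were called here. These shares therefore need not apply to the real arrays.

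Genes were named by a rule: the 15 largest rises and falls, opposite calls against DMSO, RVX-208 changes larger than JQ1 changes (up to 12), up to 2 called members each way per list, up to 10 genes alike with both compounds, and HEXIM1, SERPINI1, MYC, BRD2, BRD3, APOA1 and CYP1A1. List members outside it were named after their values were seen. Members and lists were chosen with earlier results of these data known. Same-numbered JQ1 and RVX-208 arrays showed little shared deviation from their group means (correlations 0.047 and −0.005). With 2 JQ1 arrays, whose deviations mirror each other, this check could not settle whether the numbers pair the samples. The numbers were not used as pairs.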

Additional observations from a re-analysis of the deposited data

How the results depend on the processing

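The count of 1952 called genes (743 higher and 1209 lower with JQ1) stayed within 1.5 times of itself, with 0 genes called in the opposite direction, when the arrays were weighted, normalised by cyclic loess or centred on the median, with a robust prior, and without the DMSO arrays. With the replicate numbers as a block, 1050 genes were called (350 higher, 700 lower), of which 1017 were among the 1952. The labels do not say whether the numbers pair these samples. Whether the calls missed under the block reflect such a pairing was not tested. At an adjusted p under 0.01, 754 were called (254 higher, 500 lower), and with at least a 1.5-fold difference 250 (94 higher, 156 lower), both by construction fewer. Centring on housekeeping genes gave 427 higher and 1849 lower, and an intensity trend in the prior gave 1120 higher; the cause was not tested. Leaving out 1 array gave 841 to 1981 calls, 308 to 773 higher and 533 to 1208 lower, with fewer arrays in each fit. Of the 148 named genes that were called, 88 remained called in every fit that left out 1 array. SERPINI1, not called with all arrays, was called under some settings, among them fits that left out a single DMSO array. Leaving out genes with a mean signal below 6 gave 2679 calls among the brighter genes, and it gives no value for the dim genes named.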

Other observations

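Probe sets outside the gene tests also differed between JQ1 and RVX-208. In a fit over all 19816 probe sets, 33 of the 997 that the annotation pairs with several genes were called higher and 45 lower, and 44 of the 960 with no gene were called higher and 49 lower. Of those paired with 1 gene, 708 were higher and 1172 lower of 17859.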
